A study of Mus musculus with 3 samples.

Results

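The xenobiotic-metabolising enzymes of the mouse small intestine are described here through 91 of the 22100 gene symbols counted in the series. They are every symbol of the cytochrome P450 families Cyp1, Cyp2, Cyp3 and Cyp4, of the glutathione S-transferases Gsta, Gstm, Gsto, Gstp, Gstt and Mgst, of the UDP-glucuronosyltransferases Ugt1 and Ugt2, and of the sulfotransferases (Sult). The members were picked by name, by a rule set with earlier results of these data known. It gave 44 cytochrome P450 genes, 20 soluble glutathione transferases, 3 Mgst genes, 14 Ugt genes and 10 Sult genes. A UMI (a tag that marks 1 captured RNA molecule) was counted for 90 of them in at least 1 library, and Sult1c1 had none.

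Cytochromes P450 carry out phase I of the metabolism of foreign compounds, in which a drug, toxin, steroid or fatty acid is oxidised. Phase II enzymes attach a soluble group: glutathione transferases add glutathione, Ugt enzymes add glucuronic acid and Sult enzymes add sulfate, after which pumps carry the product out of the cell. In the intestine this equipment sits mostly in enterocytes, the absorptive cells that meet dietary compounds first, and several of the same enzymes also handle bile acids, retinoids, hormones and lipid peroxides.

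Single-cell RNA-seq libraries came from whole small intestine at embryonic stages E15.5 and E17.5, counted from the morning of the plug as E0.5, and at postnatal day 7 (P7), with 1 library a stage. All 3 groups were wild-type mice with no treatment. Viable cells were sorted either as Epcam+ epithelium or as cells lacking Epcam, CD31 and CD45, and both fractions were then put together, so the proportions of cell types follow the sort. Strain, sex and the number of animals are not given in the sources used here, and no test between stages was possible: intervals below are exact 95% intervals that cover counting error only.

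The libraries held 8447 cells at E15.5, 11598 at E17.5 and 8391 at P7, with median UMI counts per cell of 8503, 6262.5 and 14014 and totals of 93501273, 94023160 and 116038115 UMIs. Clusters were named from marker genes, and each class is called "-like" for that reason. Enterocyte-like cells numbered 156, 375 and 3071 over the 3 stages, and 11 of the 12 enterocyte markers were detected at E15.5, where Sis was at 0; the summed marker level was 18950 CPM (UMIs per 1000000 UMIs of the class) at E15.5, 53930 CPM at E17.5 and 71200 CPM at P7. The barcode files list the same 8447 names for all 3 libraries, so cell barcodes shared between libraries could not be counted. Free RNA of enterocytes was visible at P7, where 8 enterocyte markers stood at 1.13 to 2.13% of their enterocyte level in fibroblast-like cells, against 0.131 to 0.274% at E17.5. The gene list ends earlier in the earlier libraries: 17 members are listed beyond the last entry used at E15.5 and 11 beyond that at E17.5, and no ratio is given against a library whose last entry lies before the gene.

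Summed over all members, enterocyte-like cells held 5172 CPM at E15.5, 4351 CPM at E17.5 and 4154 CPM at P7, while the makeup of that sum differed between stages. The Gsta family summed to 630, 134 and 108 CPM over the 3 stages, and the Gstm family to 1035, 498 and 207 CPM. The Sult family summed to 615, 804 and 970 CPM, Cyp4 to 66.1, 110 and 188 CPM, and Cyp3 to 70.9, 97.1 and 140 CPM. The embryonic Cyp3 sums are those of Cyp3a13 alone, since the other Cyp3 genes are listed beyond the last embryonic entries. Over the members that every library could hold, Cyp3 had 70.9, 97.1 and 123 CPM, Cyp4 had 66.1, 110 and 179.7 CPM and all 74 such members had 5172, 4350.4 and 4128 CPM. Glutathione transferases of the Gsta and Gstm families thus stood highest at E15.5, and sulfotransferases and the Cyp3 and Cyp4 oxidases stood highest at P7. Fibroblast-like cells held 531, 613 and 685 CPM of all members, most of it from Gstm and Mgst genes. These are 3′-end UMI counts, so 1 transcript is counted at its end and no length correction applies.

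**Figure D1:**
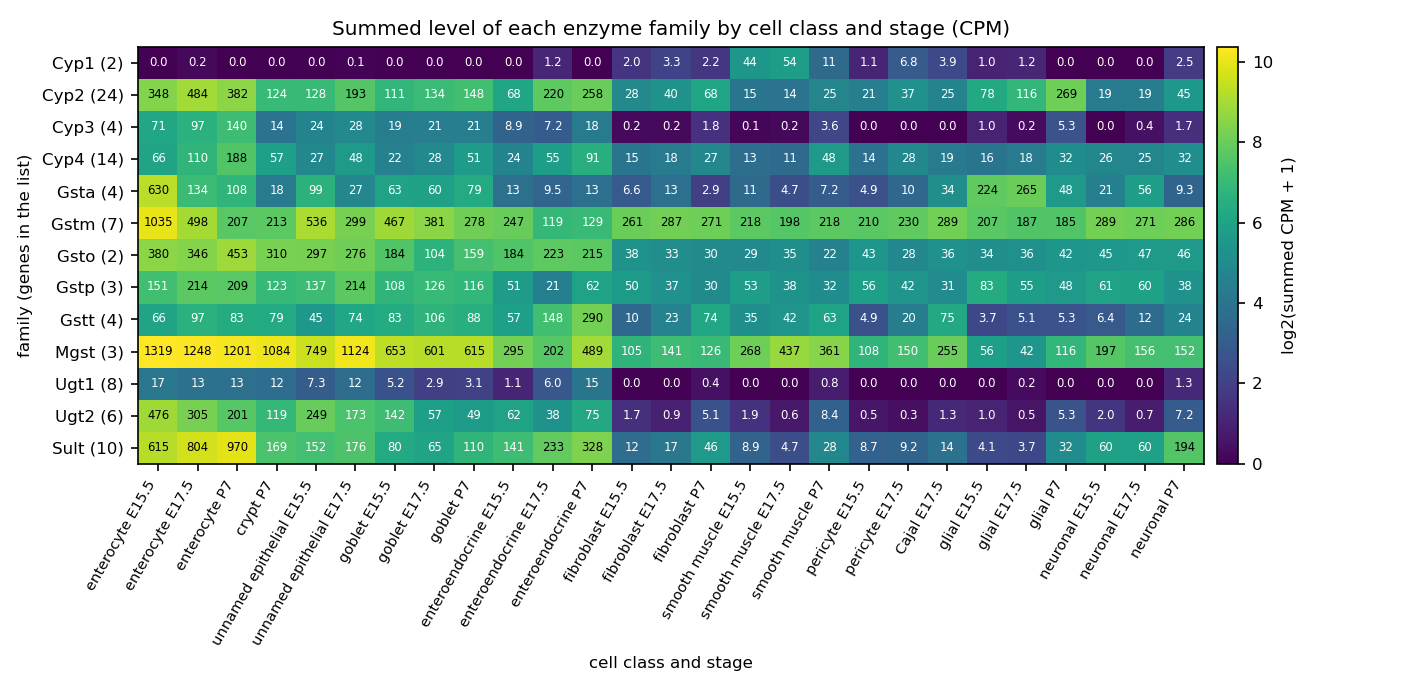
Summed CPM of each enzyme family (rows, with the number of genes listed) in each cell class and stage with 50 or more cells (columns); the colour is log2(summed CPM + 1) and the printed number is the summed CPM. In enterocyte-like cells Gsta has 108 CPM at P7 against 630 CPM at E15.5, and Cyp1 has 44.1, 53.7 and 11.2 CPM in smooth-muscle-like cells and at most 6.85 CPM in the other classes shown.

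The 5 most abundant members in P7 enterocyte-like cells were 3 glutathione transferases (Mgst1, Mgst3 and Gsto1) and 2 sulfotransferases (Sult1d1 and Sult1b1). Mgst1, a microsomal glutathione transferase and peroxidase that protects membranes from lipid peroxides, had 266, 470 and 659 CPM at E15.5, E17.5 and P7. Mgst3, a microsomal member of the same protein family, had 1010, 733 and 463 CPM, the opposite order over the stages. Gsto1, an omega-class transferase that also reduces oxidised thiols, had 379, 345 and 453 CPM.

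Sult1d1, a sulfotransferase known for acting on amines and phenols in mouse, had 409, 279 and 460 CPM. Sult1b1, which sulfates thyroid hormones and phenols, had 156 CPM at E15.5, 401 CPM at E17.5 and 403 CPM at P7, so its difference lay between the embryonic stages. Among the oxidases, Cyp2c68 was level at 129, 138 and 136 CPM, Cyp3a13 had 70.9, 97.1 and 123 CPM, and Cyp2j6, a P450 of the arachidonate-oxidising Cyp2j subfamily, had 98.2, 198 and 119 CPM. Mgst1, Mgst3, Gsto1, Sult1d1, Sult1b1, Cyp2c68, Cyp3a13 and Cyp2j6 were all detected in every embryonic and postnatal enterocyte-like group, and their highest and lowest stage differed by less than 3-fold. Among the glucuronosyltransferases, Ugt2b34 had 364, 160 and 103 CPM and Ugt2b5 had 54.4, 102 and 66.3 CPM, while the Ugt1 family, which holds the bilirubin enzyme Ugt1a1, summed to 16.7, 13.4 and 13.1 CPM. Of the 98-base windows at the 3′ end, 100% in Ugt1a1 and at least 58.4% in every Ugt1 member also occur in other Ugt1a genes. Reads of single Ugt1a genes thus could not be told apart with certainty, and the effect on the Ugt1 sum was not tested.

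Between the 2 embryonic stages the whole epithelium was compared, with 1452 epithelial-like cells at E17.5 and 1240 at E15.5. A member was called when its levels differed at least 2-fold, the interval excluded no change, and at least 20 UMIs were expected at the pooled level. By this rule 13 of 50 members were higher at E17.5 and 4 were lower; of all 12490 genes, 5.8% were higher and 4.76% were lower. The members' median log2 ratio was 0.32, against -0.13 over all genes, which is the shift that scaling by the median ratio of all genes (the all-gene scaling) would remove. Most of the members that were higher were oxidases, 8 of them Cyp2 or Cyp4 genes, and 3 of the 4 that were lower were glutathione transferases. Among all 91 members, tested or not, 44 are cytochrome P450 genes and 20 are soluble glutathione transferases. The shares of these families among the 50 tested members are not given here, so the counts by family are plain counts.

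Gstp3, a pi-class transferase, had 41.2 CPM at E17.5 and 5.76 CPM at E15.5, a log2 ratio of 2.84 (2.59 to 3.09). Sult1b1 had 179 CPM at E17.5 and 47.3 CPM at E15.5 (log2 ratio 1.92, 1.83 to 2.01). Cyp2j6 had 105 CPM at E17.5 and 37.1 CPM at E15.5 (1.51, 1.40 to 1.62). Cyp2d26, Cyp2u1, Cyp2j9, Cyp2c23, Cyp2c70, Cyp4f13 and Cyp4f16 were higher too, by log2 ratios of 1.08 (Cyp4f13) to 2.32 (Cyp2j9), as were Sult6b2 (1.87), Gstt1 (1.76) and Gstp2 (1.17). Enterocyte-like cells were 375 of the 1452 cells at E17.5 and 156 of the 1240 at E15.5. In enterocyte-like cells alone, a comparison added after the data were seen, 12 members were higher and 7 were lower of 43, against 4.68% and 4.78% of all 8715 genes. In the unnamed epithelial clusters alone 8 were higher and 7 lower of 44, against 2.81% and 6.5% of all 11127 genes. In those unnamed clusters the log2 ratio of Cyp2c23 turned to -2.56 (not called), that of Sult6b2 was 0.09 and that of Cyp2c70 was 0.72. At E17.5 Cyp2c23 stood at 0.562% of its enterocyte-like level (14.2 CPM, from 92 UMIs) in the unnamed clusters, so its ratio rests on few UMIs. Cyp4f13 (0.63) and Cyp2j9 (2.15) were not called there either, and Cyp2j9 (2.46) was not called in enterocyte-like cells alone.

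The 4 members lower at E17.5 were Gsta1, Gsta4, Cyp2s1 and Gstm1. Gsta1, an alpha-class transferase, had 9.92 CPM in E17.5 epithelium and 57.7 CPM in E15.5 epithelium (log2 ratio -2.54, -2.75 to -2.34). In enterocyte-like cells its level was 278 CPM (261 to 295) at E15.5, 27.3 CPM at E17.5 and 14.0 CPM at P7. With each cell thinned to 5000 UMIs, 59.4% of E15.5, 12.0% of E17.5 and 6.38% of P7 enterocyte-like cells had a Gsta1 UMI (unthinned 89.7, 28.8 and 16.9%). Gsta4, the alpha-class transferase that conjugates the lipid peroxidation product 4-hydroxynonenal, had 18.6 CPM in E17.5 epithelium and 67.0 CPM in E15.5 epithelium (-1.85). Gstm1, a mu-class transferase, had 99.4 CPM and 225 CPM there (-1.18), and the P450 Cyp2s1 had 12.6 CPM and 30.6 CPM (-1.28).

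Gsta1 reads could not be told from those of close copies with certainty: 79.9% of the 98-base windows in the last 500 bases of its transcripts also occur in Gm3776 or Gm10639. Those copies followed the same order in enterocyte-like cells, with 74.6, 6.62 and 2.41 CPM for Gm3776 and 6.11, 0.770 and 0.0928 CPM for Gm10639 at E15.5, E17.5 and P7. Gsta1 lies at chr9:78230656-78242684 on the plus strand of GRCm38. It is shown first because it had the lowest ratio of the members between the embryonic stages; its 250 upstream bases hold none of the searched motifs within that stretch and are therefore all in lower case.
Gsta1: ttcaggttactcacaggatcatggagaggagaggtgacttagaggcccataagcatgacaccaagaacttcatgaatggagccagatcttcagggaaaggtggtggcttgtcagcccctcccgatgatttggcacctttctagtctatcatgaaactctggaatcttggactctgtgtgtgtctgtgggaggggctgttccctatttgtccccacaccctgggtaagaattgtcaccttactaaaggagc

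A set of 7 short motifs of drug-response and intestinal factors were searched on both strands in 300 bases around each gene start (250 before, 50 after) of the RefSeq GRCm38.p6 promoter table, which held 78 of the 91 members. The antioxidant response core TGACNNNGC was in 10.3% of member promoters and 12.5% of all 27025 promoters, and the core GCGTG bound by the aryl hydrocarbon receptor was in 29.5% and 32.5%. The CDX-type motif TTTATN was in 53.8% of members and 40.8% of all, the GATA motif AGATAA in 17.9% and 11.4%, the HNF1-type motif GTTAAT in 12.8% and 7.2%, and TATAAA, which overlaps the CDX-type motif, in 24.4% and 14.2%. The HNF4-type motif CAAAGTCCA was in 5 members (6.41%: Cyp3a11, Cyp2c65, Cyp2c67, Cyp2c68 and Cyp2c70), against 0.477% of all promoters. Members of a family are gene duplicates that share sequence, so these shares describe the letters and nothing more.

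Enterocyte-like cells at P7 were then set against those at E17.5. Of 46 members tested, 5 were higher at P7 (10.9%) and 10 were lower (21.7%); of all 9859 genes, 11.4% were higher and 3.76% were lower. Glutathione transferases made up 7 of the 10, and among all 91 members, tested or not, 20 are soluble glutathione transferases and 3 are Mgst genes. Their share among the 46 tested members is not given here, so the 7 of 10 is a plain count. The members' median log2 ratio was -0.25, against 0.16 over all genes. In the Gstm family 5 of 7 tested members were lower and none higher. Under the all-gene scaling the split was 2 higher and 13 lower.

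Gstm1 had 30.9 CPM (29.4 to 32.4) at P7 and 119 CPM (111 to 128) at E17.5, a log2 ratio of -1.95 (-2.08 to -1.83). Gstm3 had 20.03 CPM at P7 and 95.1 CPM at E17.5 (-2.25, -2.39 to -2.10). Gstm2 had 32.3 CPM at P7 and 98.1 CPM at E17.5 (-1.60). All 3 mu-class transferases were thus lower by more than the counting intervals of either stage. Gstm6 and Gstm7 were lower by log2 ratios of -1.24 and -1.09, while Gstm5 (-0.43) and Gstm4 (-0.46) were not called. The Gstm genes lie in 1 cluster at chr3:107895821-108044894 (GRCm38), all 7 of them. Within lipid-kind enterocyte clusters alone, added after the data were seen, Gstm1, Gstm2 and Gstm3 had log2 ratios of -1.66, -1.47 and -1.60, and Gstm6 (-0.93) and Gstm7 (-0.71) were no longer called.

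Gsta4 had 3.77 CPM at P7 and 24.0 CPM at E17.5, the lowest ratio of the 46 (-2.67, -2.98 to -2.36), so with the E15.5 level of 189 CPM it was lower at each later stage. Gstp1, the main pi-class transferase, had 49.5 CPM at P7 and 139 CPM at E17.5 (-1.49, -1.59 to -1.37); 29.9% of its 3′-end windows are shared with another gene. Its neighbour Gstp3 went the other way, with 145 CPM (141 to 148) at P7 and 67.2 CPM (61.0 to 73.8) at E17.5, a log2 ratio of 1.11 (0.97 to 1.25) that was 0.95 under the all-gene scaling. Gsta2, at 62.5 CPM at P7 and 62.7 CPM at E17.5, showed no difference in either direction (-0.01), and 33.4% of its 3′-end windows are shared with Gsta1, Gm3776 or Gm10639. The lower oxidases Cyp2c23 (-1.19) and Cyp4f40 (-1.23) and the glucuronosyltransferase Ugt2b35 (-1.11) complete the lower members; with only cells of 1000 or more genes and under 10% mitochondrial UMIs, Cyp4f40 (-0.75) and Ugt2b35 (-0.92) were not called.

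Among the members higher at P7, Cyp4a10, a fatty acid omega-hydroxylase known as a target of the lipid sensor Ppara in mouse liver, had the largest ratio. It had 8.04 CPM at P7, from 433 UMIs, and 0.308 CPM at E17.5, from 2 UMIs, a log2 ratio of 4.71 (2.84 to 7.76). Sult2b1, a sulfotransferase of cholesterol and other sterols, had 26.6 CPM at P7 and 7.39 CPM at E17.5 (1.85, 1.43 to 2.29). Cyp4f16, a member of the eicosanoid-hydroxylating Cyp4f subfamily, had 132 CPM at P7 and 61.5 CPM at E17.5 (1.11, 0.96 to 1.25). Ugt1a1, the enzyme that conjugates bilirubin, had 4.40 CPM at P7 and 2.16 CPM at E17.5 (1.03, 0.25 to 1.92). Cyp4f16 and Ugt1a1 lost their calls under several other settings, with log2 ratios down to 0.86 with doublets kept for Cyp4f16 and 0.29 with cells weighted equally for Ugt1a1, and the 3′ ends of the Ugt1a genes are shared among them.

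**Figure D2:**
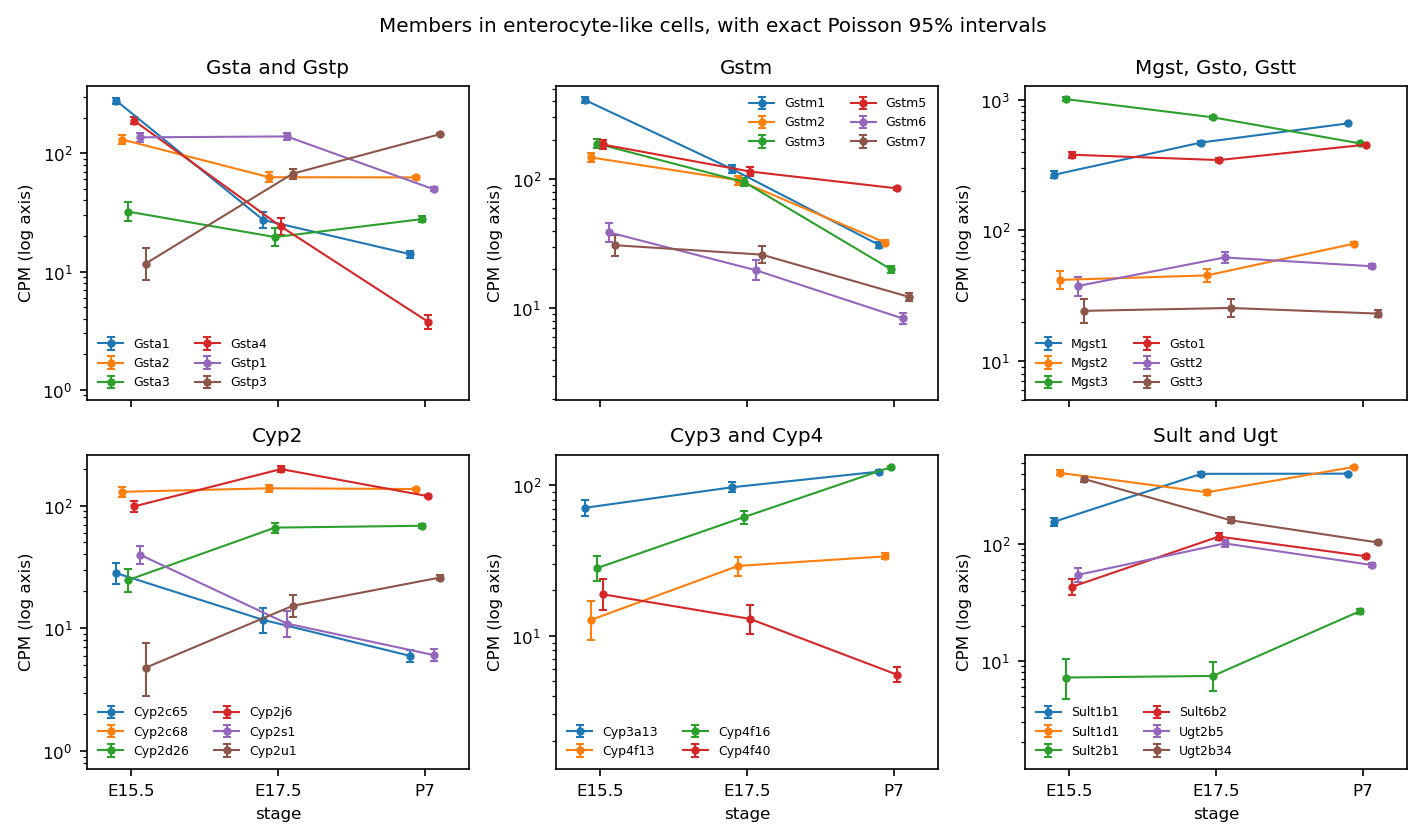
CPM on a log axis of 34 members in enterocyte-like cells at E15.5, E17.5 and P7, in panels by family, with exact Poisson 95% intervals. Gsta1, Gsta4 and the Gstm genes step down over the stages, while Gstp3 (11.7, 67.2 and 145 CPM) and Cyp4f16 (28.1, 61.5 and 132 CPM) step up.

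**Figure D3:**
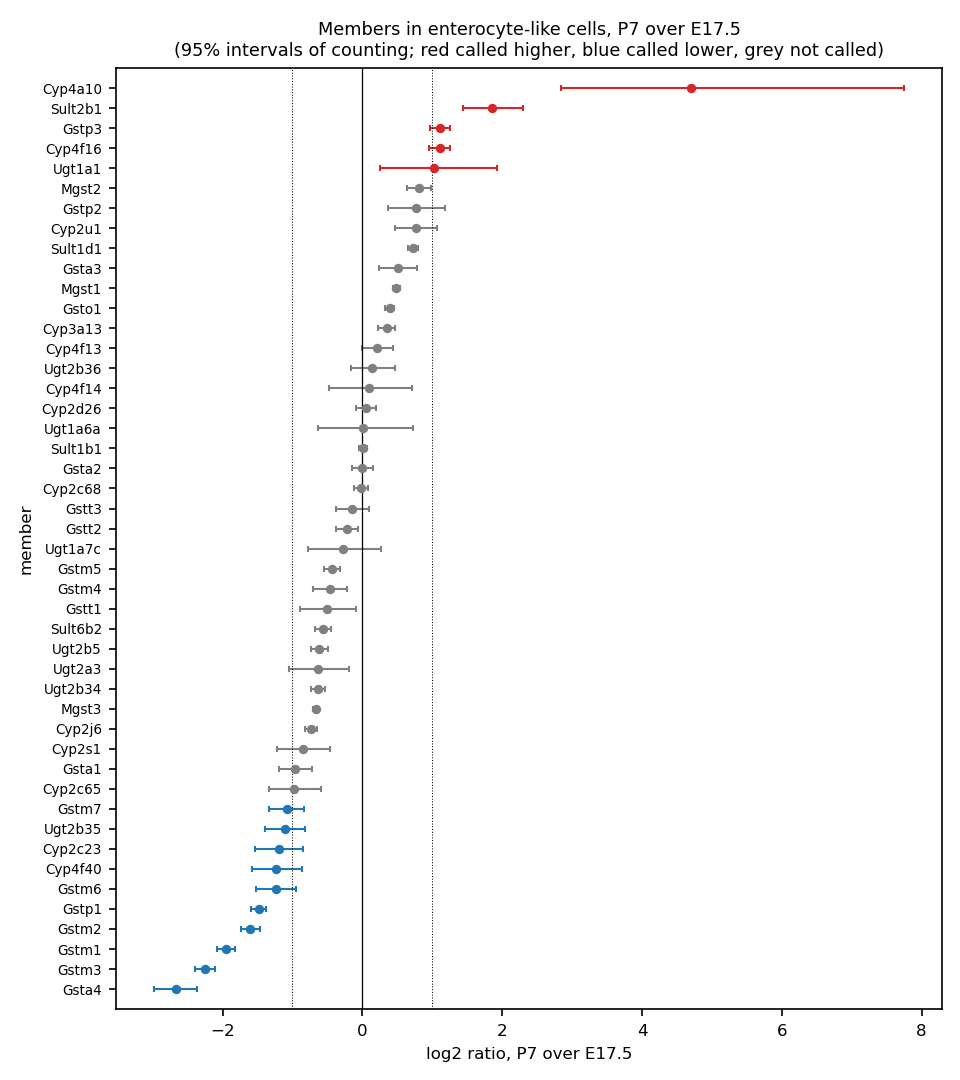
Log2 ratio, P7 over E17.5, of the 46 tested members in enterocyte-like cells (1 row each) with 95% counting intervals; dotted lines mark a 2-fold difference. The 5 red members were called higher and the 10 blue members lower, from Cyp4a10 at 4.71 to Gsta4 at -2.67.

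Lists of genes that act beside the members were read in the same cells. Of 7 tested drug export pumps 4 were higher at P7 and 1 lower, with a median log2 ratio of 1.13: Abcb1a, the P-glycoprotein pump, had 65.8 CPM at P7 and 20.8 CPM at E17.5 (1.66), Abcg2 had 270 CPM and 97.2 CPM (1.47), and the cation exporter Slc47a1 had 1.93 CPM and 12.6 CPM (-2.71). Of 13 tested genes of glutathione supply and the oxidant response, 5 were higher and 1 lower, with Gpx2 at a log2 ratio of 1.93 and the glutathione-degrading Ggt1 at -2.88. Of 26 other phase I enzymes 8 were higher and 2 lower, from the xanthine oxidase gene Xdh (3.14) to the alcohol dehydrogenase Adh1, at 63.7 CPM and 453 CPM (-2.83). The xenobiotic and lipid sensors gave 2 higher and 1 lower of 10, with Vdr at 1.63 and Ppara at -1.33. P450 redox partners gave 1 lower of 6 (Cyb5r3, -1.13). The list of other phase II enzymes and cofactor genes gave 1 higher of 14, which was Sqor (1.47), a sulfide-oxidising enzyme and not a conjugating one.

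All 4 tested erythroid markers were lower in P7 enterocyte-like cells, where the 6 haemoglobin and glycophorin genes summed to 446 CPM, against 3575 CPM at E17.5. All 4 tested erythroid markers were also lower at P7 than at E17.5 in the crypt, fibroblast and smooth muscle comparisons, higher in enterocyte-like than crypt-like cells, and higher in lysosome-rich than lipid-kind cells. The part of erythroid RNA in the ratios was not tested. The 7 hepatocyte markers summed to 21.1 CPM at P7 and 20.2 CPM at E17.5, with 0 and 2 of them at 0 and Alb at 0.0186 CPM and 0 CPM.

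At P7, enterocyte-like cells (3071) could be set against crypt-like cells (1949), the zone of stem and dividing cells, within the same library. Of 58 members, 26 were higher in enterocyte-like cells and 2 were lower; of all 12671 genes, 18.6% were higher and 24.4% were lower. The members' median log2 ratio was 0.78, against -0.16 over all genes. The clusters were made without the members, but the markers that named the classes are genes of the same cells.

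Among members with UMIs in both classes, the largest differences were in Sult6b2, with 78.7 CPM in enterocyte-like cells and 1.85 CPM in crypt-like cells (log2 ratio 5.41, 5.04 to 5.81), in Cyp2c23, with 6.20 CPM and 0.156 CPM (5.31, 4.07 to 6.94), and in Gsta2, with 62.5 CPM and 1.78 CPM (5.13, 4.75 to 5.53). Cyp3a25, a member of the steroid- and drug-oxidising Cyp3a subfamily, had 16.0 CPM in enterocyte-like cells and 0.845 CPM in crypt-like cells (4.24). Crypt-like cells held 8 enterocyte markers at 1.97 to 6.45% of their enterocyte level, and the crypt levels of Sult6b2, Cyp2c23, Gsta2 and Cyp3a25 lie within that range of their enterocyte levels, so they were not told apart from free RNA. Cyp2f2, outside the naming rule, had 1.23 CPM in enterocyte-like cells, from 66 UMIs, and 0 UMIs in crypt-like cells, at least 13.05-fold higher against a floor of 3 UMIs. Cyp3a13 had 123 CPM and 13.3 CPM (3.21), Cyp2d26 had 68.4 CPM and 7.70 CPM (3.15), and Sult1d1 had 460 CPM and 69.1 CPM (2.74). The Gsta1, Cyp4a10, Cyp2c68, Sult1b1 and Cyp4f16 ratios lay between 2.32 and 3.32.

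Not every abundant member followed this gradient. All 3 Mgst genes, all 3 tested Gstt genes and both Gsto genes were uncalled between the compartments: Mgst1 had 659 CPM in enterocyte-like cells and 616 CPM in crypt-like cells, Mgst3 had 463 CPM and 421 CPM, and Gsto1 had 453 CPM and 309 CPM. Cyp4v3, a fatty acid hydroxylase, was lower in enterocyte-like cells, with 1.65 CPM and 7.13 CPM (-2.11, -2.48 to -1.75), and Ugt2b35 was lower with 9.47 CPM and 19.2 CPM (-1.02). The surrounding lists were called higher in enterocyte-like cells for 7 of 10 pumps (Abcc2 at 421 CPM and 39.9 CPM, 3.40), 8 of 14 other phase II genes and 16 of 32 other phase I enzymes (Maob at 310 CPM and 19.8 CPM, 3.97), and lower for 2, 0 and 2 of them; Gpx2, a glutathione peroxidase, was lower with 14.7 CPM and 432 CPM (-4.88).

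Crypt-like P7 cells were also set against the 1077 E17.5 epithelial-like cells that were not enterocyte-like, although no E17.5 cluster was named crypt-like. Of 49 members, 6 were higher at P7 and 8 were lower; of all 11864 genes, 7.97% were higher and 7.1% were lower, with medians of -0.23 for the members and 0.10 for all genes. Gsta4 had 2.66 CPM at P7 and 16.4 CPM at E17.5 (-2.63, -3.00 to -2.27), and Gstp1 had 55.0 CPM and 152 CPM (-1.47), both in the direction they took in enterocyte-like cells. Cyp4v3 had 7.13 CPM at P7 and 1.48 CPM at E17.5 (2.27, 1.66 to 2.94). Gstp3 (1.03), Sult2b1 (1.01) and Cyp2j9 (1.04) stood at the 2-fold limit and were uncalled when levels were scaled by the median ratio of all genes, which gave 3 higher and 10 lower.

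The neonatal mouse intestine has 2 kinds of enterocyte: lipid-absorbing cells of the upper gut and lysosome-rich cells of the lower gut, which take up and digest milk protein. By marker scores, 962 P7 cells in 3 clusters were lysosome-rich and 1320 in 4 clusters were of the lipid kind, with 789 in 3 clusters between them. Of 54 members, 9 were higher in lysosome-rich cells and 12 were lower; of all 11151 genes, 11.3% were higher and 4.65% were lower. The members' median log2 ratio was -0.15, against 0.25 over all genes. All 4 Gsta genes and 3 Cyp2 genes (Cyp2s1, Cyp2u1 and Cyp2w1) were among the 9 that were higher, while 8 of the 12 lower members were Cyp2, Cyp3 or Cyp4 genes. All 4 Gsta genes lost their calls under a stricter cell filter, with log2 ratios of 0.66 to 0.77, and Gsta1, Gsta2 and Gsta3 overlapped between clusters of the kinds (Gsta2 had 8.88 to 147 CPM in lysosome-rich clusters and 9.86 to 36.9 CPM in lipid-kind clusters). Coarser clustering (resolution 0.5) gave 4 higher and 18 lower members.

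The markers did not separate the clusters alike. Fabp6, the ileal bile acid binding protein, had 69.3 to 1659 CPM in lysosome-rich clusters and 0.733 to 5.87 CPM in lipid-kind clusters. Lgmn, the lysosomal protease legumain, had 26.3, 469 and 3479 CPM in the 3 lysosome-rich clusters and 12.9 to 376 CPM in lipid-kind clusters, so the groups overlapped. The 3 intermediate clusters had 63.5, 685 and 2999 CPM of Lgmn, so Lgmn alone did not set the lysosome-rich clusters apart from them either. The cluster at 26.3 CPM, with 190 cells, was led by Reg3b and by Fgf15, the hormone of the ileum, at 178 CPM. Without it, a choice made after the data were seen, 9 of 52 members were higher and 15 were lower, against 11.6% and 5.92% of all 10788 genes; the log2 ratios of the Gsta genes were then 1.36 to 1.88, and 19 of the 21 members called with all 3 clusters were called in the same direction.

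Cyp4a10 had 0.193 CPM in lysosome-rich cells, from 3 UMIs, and 17.535 CPM in lipid-kind cells, from 421 UMIs (log2 ratio -6.51, -8.79 to -4.95). Cyp2d26 had 5.85 CPM in lysosome-rich cells and 144 CPM in lipid-kind cells (-4.62, -4.93 to -4.32). Cyp2c65 had 0.450 CPM and 12.5 CPM (-4.79, -6.12 to -3.73), and Cyp2c66, its neighbour on chromosome 19, had 0.193 CPM and 6.0 CPM (-4.96). The neighbours thus shared their direction. Cyp3a25 had 1.54 CPM and 29.2 CPM (-4.24), and Cyp2c70, the P450 that makes muricholic bile acids in mouse, had 0.129 CPM and 2.33 CPM (-4.18, -7.26 to -2.26). Cyp2c70 rests on low levels: its call was kept under 5 of 10 other settings, with log2 ratios of -4.62 to -2.91. Its single clusters had at most 0.710 CPM in the lysosome-rich kind and at least 1.07 CPM in the lipid kind. Other members were abundant in both kinds: Cyp2c68, from the same chromosome 19 cluster, Cyp3a13 and Sult1b1 were not called.

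These ratios were seen cluster by cluster. Cyp2d26 ranged over the 3 lysosome-rich clusters from 1.47 to 13.1 CPM and over the 4 lipid-kind clusters from 56.0 to 224 CPM, with the 3 intermediate clusters at 2.51 to 22.0 CPM. Cyp3a25 ranged from 1.07 to 2.29 CPM in lysosome-rich clusters, and from 8.09 to 50.7 CPM in lipid-kind clusters. Of the 54 members tested, 5 stood higher in every lysosome-rich cluster than in every lipid-kind cluster (Cyp2u1, Cyp2w1, Gsta4, Gstm4 and Ugt2b36), which is 9.26%, against 13.5% of all 11151 genes. In the other direction 9 stood lower in every lysosome-rich cluster (Cyp2c65, Cyp2c66, Cyp2c70, Cyp2d26, Cyp3a25, Cyp4a10, Cyp4f16, Gstm5 and Ugt1a1), which is 16.7%, against 5.09% of all genes. Clusters of 1 library are not replicates.

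In the other direction, Ugt2b36, a glucuronosyltransferase, had 30.6 CPM in lysosome-rich cells and 6.37 CPM in lipid-kind cells (2.26, 2.00 to 2.53); at resolution 0.5 its log2 ratio was 0.92 and it was not called. Sult6b2 had 124 CPM and 32.7 CPM (1.93), and Cyp2u1, a P450 of long-chain fatty acids, had 39.9 CPM and 13.0 CPM (1.62). Gsta2 had 86.3 CPM and 28.0 CPM (1.62), Gsta3 had 44.7 CPM and 15.495 CPM (1.53), and Gsta1 had 23.4 CPM and 10.4 CPM (1.17). With the stricter cell filter of 1000 genes and 10% mitochondrial UMIs, Gsta1, Gsta2, Gsta3, Gsta4, Sult6b2 and Cyp2u1 had log2 ratios of 0.66 to 0.93 and were not called, and 13 members were called in place of 21. The other phase I enzymes gave 1 higher and 10 lower of 28, with Adh6a at 0.579 CPM and 48.0 CPM (-6.37) and Maoa at 16.9 CPM and 2.54 CPM (2.74).

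**Figure D4:**
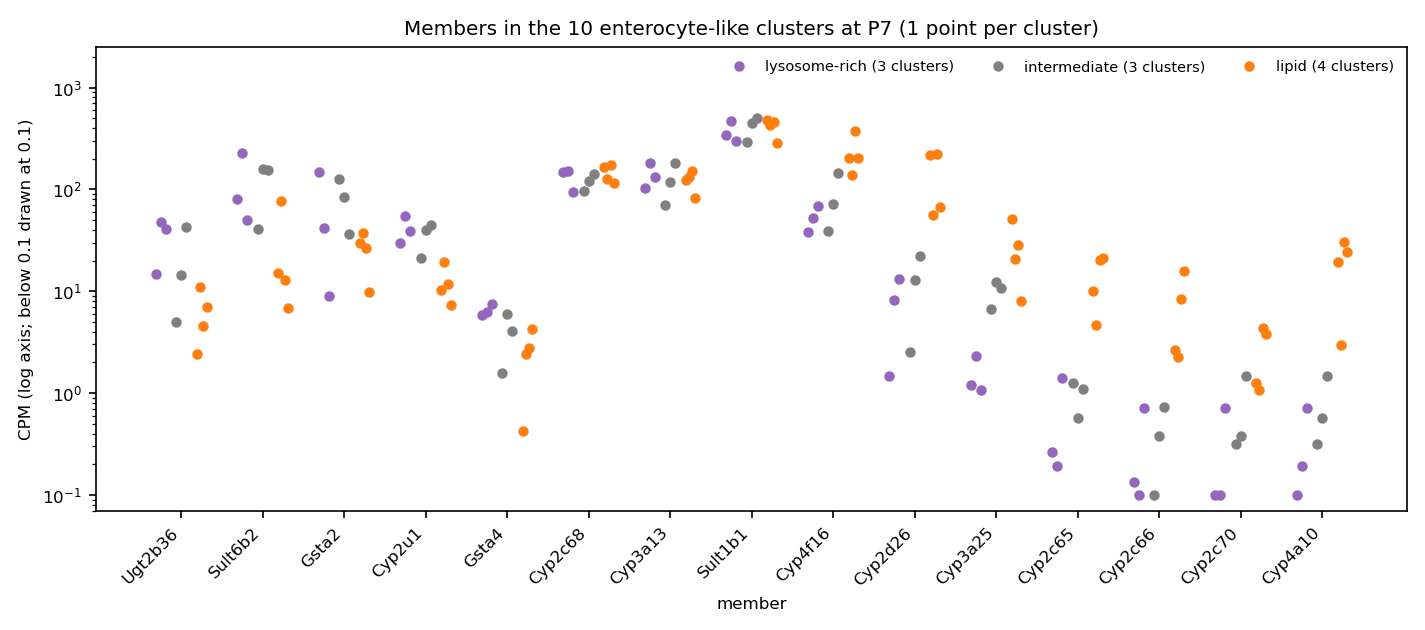
CPM on a log axis of 15 members in each of the 10 enterocyte-like clusters at P7, 1 point per cluster, with lysosome-rich, intermediate and lipid-kind clusters side by side. The points of Cyp2d26, Cyp3a25, Cyp2c65, Cyp2c66, Cyp2c70 and Cyp4a10 do not overlap between lysosome-rich and lipid-kind clusters, while those of Cyp2c68, Cyp3a13 and Sult1b1 do.

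The 250 upstream bases of 6 oxidases (RefSeq GRCm38.p6) are shown because 5 of them separated the enterocyte kinds and the other, Cyp2c68, did not; they were chosen after their values were seen. Capitals mark matches to the 7 searched motifs on either strand. Counted from the gene start, the HNF4-type letters stand at -116 to -108 in Cyp2c65, -64 to -56 in Cyp2c70 and -77 to -69 in Cyp2c68, which is level between the kinds, and are not in the window of Cyp2c66. The sequences lie at chr5:146009619-146009868 (Cyp3a25), chr15:82794246-82794495 (Cyp2d26), chr19:40187287-40187536 (Cyp2c70) and chr19:39741102-39741351 (Cyp2c68) on the minus strand, and at chr19:39060756-39061005 (Cyp2c65) and chr19:39113648-39113897 (Cyp2c66) on the plus strand.
Cyp3a25: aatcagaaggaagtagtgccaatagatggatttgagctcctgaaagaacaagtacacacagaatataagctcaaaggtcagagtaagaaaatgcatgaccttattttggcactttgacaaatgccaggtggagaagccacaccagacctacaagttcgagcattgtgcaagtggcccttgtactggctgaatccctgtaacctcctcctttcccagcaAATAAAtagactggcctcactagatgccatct
Cyp2d26: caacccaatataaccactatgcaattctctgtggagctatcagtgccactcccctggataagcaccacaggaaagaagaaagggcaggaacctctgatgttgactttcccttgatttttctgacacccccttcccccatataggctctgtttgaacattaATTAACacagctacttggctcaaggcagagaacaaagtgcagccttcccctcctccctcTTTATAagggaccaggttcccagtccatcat
Cyp2c65: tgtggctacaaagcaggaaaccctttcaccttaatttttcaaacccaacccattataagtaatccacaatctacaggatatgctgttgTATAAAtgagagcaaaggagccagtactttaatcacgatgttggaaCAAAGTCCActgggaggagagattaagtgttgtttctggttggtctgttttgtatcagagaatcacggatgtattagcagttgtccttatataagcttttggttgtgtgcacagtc
Cyp2c66: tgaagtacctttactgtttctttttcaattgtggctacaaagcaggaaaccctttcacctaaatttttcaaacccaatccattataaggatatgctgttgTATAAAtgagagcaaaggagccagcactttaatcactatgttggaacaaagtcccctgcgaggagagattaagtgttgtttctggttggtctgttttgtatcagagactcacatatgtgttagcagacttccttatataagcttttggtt
Cyp2c70: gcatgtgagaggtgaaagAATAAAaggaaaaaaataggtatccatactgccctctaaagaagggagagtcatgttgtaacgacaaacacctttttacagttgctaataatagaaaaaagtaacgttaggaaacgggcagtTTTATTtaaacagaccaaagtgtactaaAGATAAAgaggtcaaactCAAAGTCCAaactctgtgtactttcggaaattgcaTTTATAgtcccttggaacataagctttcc
Cyp2c68: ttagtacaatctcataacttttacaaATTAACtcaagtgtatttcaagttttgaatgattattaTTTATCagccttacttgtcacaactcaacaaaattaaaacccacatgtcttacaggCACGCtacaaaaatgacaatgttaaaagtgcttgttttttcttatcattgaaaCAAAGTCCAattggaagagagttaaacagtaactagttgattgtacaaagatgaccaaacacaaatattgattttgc

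Several members had their highest level outside enterocyte-like cells. Gstt1, a theta-class transferase that acts on small halogenated compounds, had 24.4 CPM (interval 15.3 to 36.9), 122 CPM (interval 99.2 to 148) and 231 CPM (interval 212 to 252) in enteroendocrine-like cells, the hormone-secreting cells of the epithelium, over the 3 stages. In enterocyte-like cells it had 3.98, 9.55 and 6.72 CPM. After thinning to 5000 UMIs, 32.0% of P7 enteroendocrine-like cells (25.2 to 39.5%, 175 cells, 69 too shallow) and 3.07% of P7 enterocyte-like cells (3025 cells, 46 too shallow) had a Gstt1 UMI; unthinned shares were 38.5% and 10.6%, at median depths of 6838 and 17148 UMIs.

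In the same endocrine-like cells Cyp2c65 had 4.44, 25.1 and 36.2 CPM and Cyp2c68 had 21.1, 85.9 and 68.8 CPM. Cyp4b1, an oxidase outside the naming rule and chosen after its values were seen, had 8.87, 23.9 and 28.1 CPM there and at most 0.520 CPM in enterocyte-like cells. At P7 the 8 enterocyte markers stood at 8.37 to 11.3% of their enterocyte level in enteroendocrine-like cells, which bears on members that are abundant in enterocytes but not on Gstt1 or Cyp4b1, whose endocrine levels exceeded the enterocyte levels. By whole class, Mgst2, a microsomal transferase that can make leukotriene C4, was highest in goblet-like cells, the mucus-secreting cells. It had 45, 83.0 and 133 CPM there, against 41.7, 45.1 and 79.0 CPM in enterocyte-like cells. At P7 the single enterocyte-like clusters ranged from 32.2 to 189 CPM, so some of them stood above the goblet-like level.

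Gsta4 was highest at E15.5 and E17.5 in glial-like cells of the enteric nervous system, with 223 CPM (interval 206 to 240), 264 CPM (interval 249 to 280) and 42.3 CPM (8 UMIs from 66 cells, interval 18.2 to 83.3) over the 3 stages. After thinning, 62.4% of E15.5 and 69.6% of E17.5 glial-like cells had a Gsta4 UMI (unthinned 75.5 and 67.5%). Cyp2j9 stood at 13.9, 34.5 and 47.6 CPM and Cyp2j6 at 60.8, 78.6 and 196 CPM in the same cells. Goblet-like cells had Gsta4 at 40.6, 45.1 and 49.2 CPM, the highest level at P7, though within the interval of the glial-like one, while enterocyte-like cells had 189, 24.0 and 3.77 CPM. Sult4a1, a sulfotransferase-like protein known from brain neurons and outside the naming rule, stood at 55.0, 54.8 and 177 CPM in neuronal-like cells and below 8 CPM in the other classes of 50 or more cells, and 54.5% of thinned P7 neuronal-like cells held a UMI of it (78.4% unthinned).

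In fibroblast-like cells (5209 at E17.5 and 3545 at E15.5) 6 of 28 members were higher at E17.5 and 1 was lower; of all 13433 genes, 6.98% were higher and 2.49% were lower. Sult1a1, a phenol sulfotransferase, had 3.10 CPM at E17.5 and 0.443 CPM at E15.5 (2.81, 1.96 to 3.77). All 3 tested Gstt genes were higher (Gstt3 1.34, Gstt1 1.23 and Gstt2 1.05), as were Gsta4 with 12.5 CPM and 5.93 CPM (1.08, 0.81 to 1.34) and Gsto2 (1.01), and Ugt2b34 was lower (-1.95). In fibroblast-like cells Ugt2b34 stood at only 0.365% of its enterocyte-like level at E15.5 and 0.214% at E17.5. The 8 enterocyte markers stood there at 0.149 to 0.324% and 0.131 to 0.274%, and the part of free RNA in the Ugt2b34 ratio was not tested. The Ugt2b34 call was kept under 5 of 10 other settings. With doublets kept, 2 of these 7 members (Sult1a1 and Gstt3) were still called, and the log2 ratio of Gsta4 was 0.78 to 0.99 under 4 settings, that one included. With the marker gate Gstt3 (0.43) and Gstt2 (0.55) were not called. The members' median log2 ratio was 0.38, against -0.11 over all genes. The 6 erythroid genes summed to 22000 CPM in E17.5 fibroblast-like cells and 658 CPM in E15.5 ones, and their part in these ratios was not tested.

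From E17.5 to P7, fibroblast-like cells (1043 at P7) had 1 of 18 members higher and 2 lower; of all 10749 genes, 7.39% were higher and 3.65% were lower, with medians of 0.32 for the members and 0.14 for all genes. Gstt1 had 52.8 CPM (46.6 to 59.5) at P7 and 8.49 CPM (7.47 to 9.62) at E17.5, a log2 ratio of 2.63 (2.38 to 2.89), so it was higher at each stage than at the one before, as in endocrine-like cells. Gsta4 had 1.96 CPM at P7 and 12.5 CPM at E17.5 (-2.67) and Gstm7 had 0.785 CPM and 4.54 CPM (-2.53). Gstm7 rests on low levels: its call was kept under 6 of 10 other settings, with log2 ratios of -2.72 to -2.35. Cyp2d22, outside the naming rule, stood at 12.0, 20.2 and 26.1 CPM and Sult5a1 at 9.91, 11.7 and 22.6 CPM in fibroblast-like cells over the 3 stages, against 0.891 CPM of Cyp2d22 and 0 UMIs of Sult5a1 in P7 enterocyte-like cells.

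Cyp1b1, the P450 of the aryl hydrocarbon response that oxidises oestrogens and retinoids, was a smooth-muscle member. It stood at 44.1, 53.7 and 11.2 CPM in smooth-muscle-like cells, at 1.98, 3.27 and 2.16 CPM in fibroblast-like cells, and at 0, 0.154 and 0.0186 CPM in enterocyte-like cells. Cyp1a1, the other Cyp1 gene, had 0 UMIs in the epithelial-like cells of each stage, where a floor of 3 UMIs is 0.110 CPM at E15.5, 0.132 CPM at E17.5 and 0.0311 CPM at P7. From E17.5 to P7 in smooth-muscle-like cells, 1 of 10 members was higher and 1 was lower; of all 8325 genes, 14.0% were higher and 5.71% were lower, with medians of -0.07 for the members and 0.26 for all genes. Under the all-gene scaling 1 was higher and 2 were lower. Cyp1b1 was the lower one, with 11.2 CPM at P7 and 53.7 CPM at E17.5 (-2.27, -2.87 to -1.72), and Gstm2 the higher one, with 70.9 CPM and 24.8 CPM (1.52, 1.24 to 1.79).

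The P7 smooth-muscle-like class was mostly of another kind of muscle than at E17.5: 88 of its 550 cells lay in the cluster led by Actg2, the visceral muscle actin, and at E17.5 all 1332 did. Within Actg2-led clusters, an addition made after the data were seen, Cyp1b1 had 46.6 CPM (31.0 to 67.4) at P7 and 53.7 CPM at E17.5, a log2 ratio of -0.20, Gstm2 had a log2 ratio of 0.50, and 0 of 5 members were called, against 3.24% higher and 5.4% lower of all 3520 genes. All 28 Cyp1b1 UMIs of P7 muscle were in the Actg2-led cluster, and the other muscle cells had 0, where a floor of 3 UMIs is 1.57 CPM. From E15.5 to E17.5 no member of 20 was higher in smooth-muscle-like cells and 2 were lower, against 3.36% and 11.0% of all 11576 genes; Sult5a1 had 1.79 CPM at E17.5 and 5.88 CPM at E15.5 (-1.72), and Gsta4 had 4.2 CPM and 10.7 CPM (-1.35, and -0.999 under the all-gene scaling, where it was not called and 1 other member was called higher). The members' median log2 ratio was -0.03, against -0.35 over all genes.

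The 250 bases before the Cyp1b1 start (chr17:79715062-79715311, minus strand, RefSeq GRCm38.p6) are shown because Cyp1b1 is the Cyp1 gene with a level; capitals mark GCGTG on the other strand, at -76 to -72.
Cyp1b1: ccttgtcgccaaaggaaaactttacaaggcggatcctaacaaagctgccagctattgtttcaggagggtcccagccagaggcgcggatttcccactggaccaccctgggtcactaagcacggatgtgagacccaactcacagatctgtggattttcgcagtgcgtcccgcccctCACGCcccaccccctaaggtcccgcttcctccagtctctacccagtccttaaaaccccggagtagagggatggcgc

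**Figure D5:**
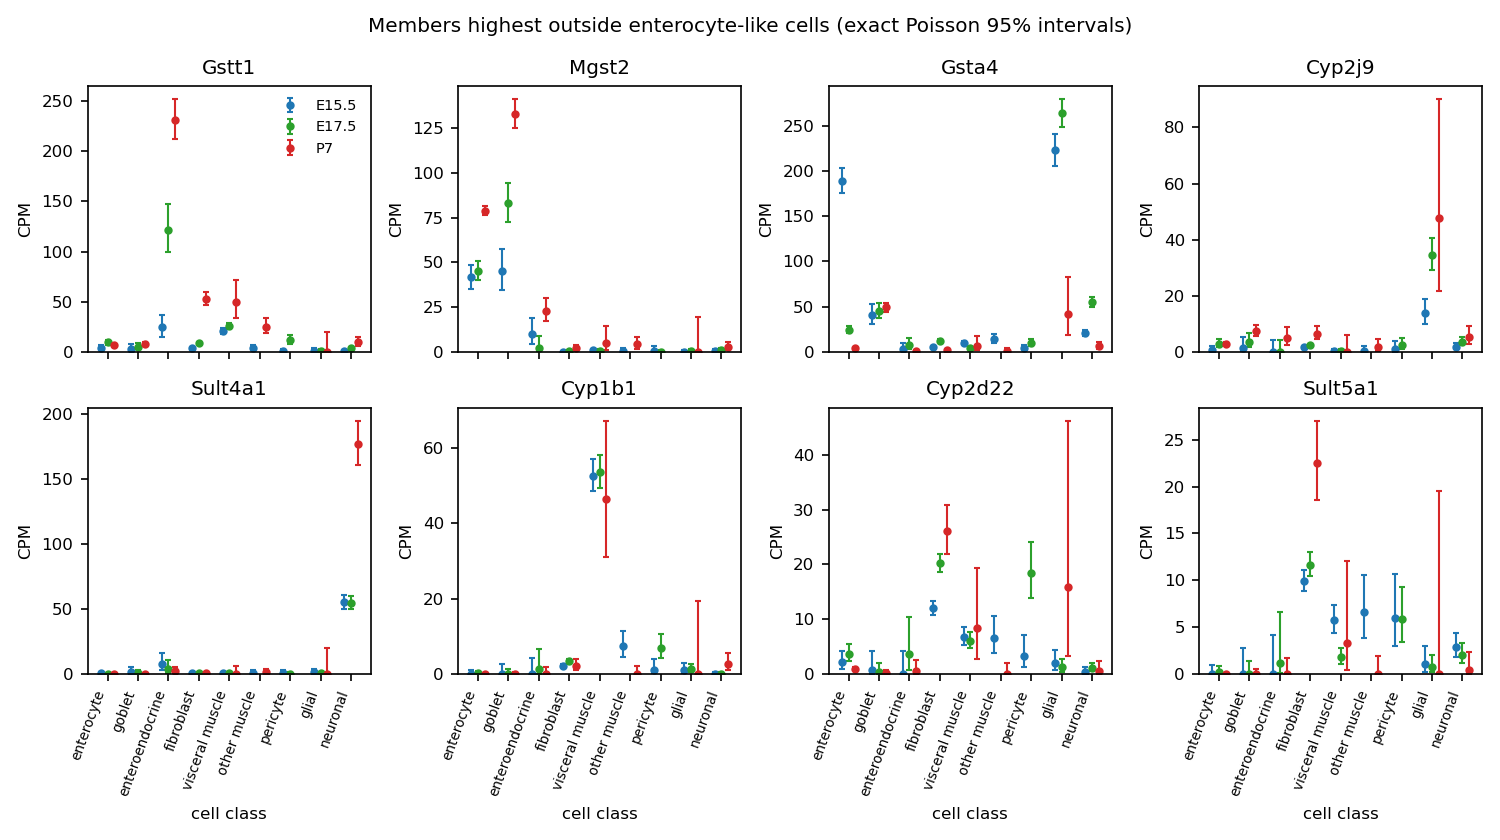
CPM of 8 members in 9 cell classes (classes with 50 or more cells) at E15.5, E17.5 and P7, with exact Poisson 95% intervals; visceral muscle is the Actg2-led clusters. Gstt1 is highest in enteroendocrine-like cells, Mgst2 in goblet-like, Cyp2j9 in glial-like, Sult4a1 in neuronal-like, Cyp1b1 in visceral-muscle-like and Cyp2d22 and Sult5a1 in fibroblast-like cells; Gsta4 is highest in glial-like cells at E15.5 and E17.5 and in goblet-like cells at P7 (49.2 CPM, against 42.3 CPM in glial-like cells).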

How the data were processed

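The deposited values are UMI counts per gene and cell in 3 matrices, 1 library a stage, made with a droplet 3′ kit. The authors used Cell Ranger 7.2.0 with the mouse builds mm10 and GRCm38, per the submitters' processing notes; the annotation and the filters on cells are not given in the sources used here. Every cell held at least 501 genes and at most 15.0% mitochondrial UMIs, so a filter at 500 genes and 15% removed 0 cells. All 3 libraries share 1 list of 22100 symbols, but no count stands beyond entry 20352 in the E15.5 library or beyond entry 21415 in the E17.5 one. A gene listed later may have been removed before deposit and has no fold change between stages.

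Doublets were called with Scrublet in scanpy 1.11.5 (expected rate 6%), which removed 243, 453 and 389 cells at E15.5, E17.5 and P7. Each library was clustered alone (2000 variable genes without the members, 30 principal components, 15 neighbours, Leiden with leidenalg 0.10.2 at resolution 1). Clusters were named from marker lists, with at least 3 markers detected in 25% of cells and a margin of 0.5 log2 over the next class. UMIs were summed per class and stage and scaled to CPM. Intervals are exact Poisson for a level, exact Clopper-Pearson for a share of cells and exact conditional binomial for a log2 ratio, at 95%, with scipy 1.17.1. A ratio was called when it was at least 2-fold with an interval that excluded 0 and at least 20 UMIs at the pooled level in both sums, over all genes of each of 9 comparisons. The calculation was tested on simulated counts that held Poisson counting error only, so that test cannot bear on differences between cells, animals or libraries.

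The members and lists were chosen with earlier results of these data known. The text names the 30 most abundant members, the highest of each family, the 10 called members with the largest ratio in each direction of each comparison and the 2 highest and 2 lowest genes of each other list, or fewer; Gstm4, Gstp2, Cyp2f2, Cyp4b1, Sult4a1 and Cyp2d22 were chosen after their values were seen. Alternatives changed the doublet step, resolution, naming (a gate on marker UMIs of each cell), scaling, UMI minimum, cell filter, variable genes and weighting of cells. Gene positions and shared 3′ sequence (98-base windows in the last 500 bases) came from GENCODE M21, and promoters from RefSeq GRCm38.p6.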

Additional observations from a re-analysis of the deposited data

Results flagged for a closer look

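Gsta4, the transferase of 4-hydroxynonenal, had opposite directions at E17.5 over E15.5 in different cell classes. Its log2 ratio was -1.85 in epithelial-like cells, with 18.6 CPM at E17.5 and 67.0 CPM at E15.5, and 1.08 in fibroblast-like cells, with 12.5 CPM at E17.5 and 5.93 CPM at E15.5, which is a difference of -2.92. In smooth-muscle-like cells the log2 ratio was -1.35, so fibroblast-like cells stood 2.42 above them on the log2 scale. Gstm2 differed likewise at P7 over E17.5, with a log2 ratio of -1.60 in enterocyte-like cells and 1.52 in smooth-muscle-like cells, a difference of -3.12; within Actg2-led muscle clusters its log2 ratio was 0.50. With 1 library a stage these differences between classes were not tested.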

How the results depend on the processing

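No paired analysis was possible because each stage is 1 library, and for the same reason no library could be left out. For the 103 called ratios of members named by rule, 1030 values were computed under 10 other settings each: 940 were still called the same way, 90 were not and 0 reversed. Under alternatives added after seeing the data, 70 of 85 were still called. Cyp2c23 at E17.5 over E15.5 reversed to -2.56 in the unnamed epithelial clusters, where it was not called. That value rests on few UMIs, and the cause was not tested. Dropping the minimum of 20 UMIs admits genes with few UMIs: the count of called members became 23 in place of 15 for P7 over E17.5 enterocyte-like cells, 13 in place of 7 for E17.5 over E15.5 fibroblast-like cells, 19 (17 higher, 2 lower) in place of 3 (1 higher, 2 lower) for P7 over E17.5 fibroblast-like cells, 6 in place of 2 for E17.5 over E15.5 smooth-muscle-like cells and 21 (19 higher, 2 lower) in place of 2 (1 higher, 1 lower) for P7 over E17.5 smooth-muscle-like cells. A minimum of 10 UMIs gave 5 and 6 for the P7 over E17.5 comparisons of fibroblast-like and smooth-muscle-like cells. The stricter cell filter gave 13 in place of 21 for lysosome-rich over lipid-kind cells and 3 for E17.5 over E15.5 fibroblast-like cells, which also gave 3 with doublets kept, 3 with the marker gate and 4 with cells weighted equally. Smooth-muscle-like cells gave 1 with doublets kept at E17.5 over E15.5, and at P7 over E17.5 they gave 4 with doublets kept, 5 with the marker gate and 0 in Actg2-led clusters alone, where fewer cells entered. The causes of the other shifts were not tested. At the minimum of 20 UMIs, 10 of 91 members were testable in P7 over E17.5 smooth-muscle-like cells, against 58 in enterocyte-like over crypt-like cells.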
